A study of Rattus norvegicus with 6 samples.

Results

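Water crosses the lining of the colon through aquaporins, membrane channels of the epithelium and of blood vessels, and follows the salt that epithelial transporters move. Guanylin (Guca2a) and uroguanylin (Guca2b) are peptides that bind guanylate cyclase C (Gucy2c) on the luminal face of the epithelium, which makes cyclic GMP. Cyclic GMP activates the type II cyclic GMP-dependent protein kinase (Prkg2), and this kinase opens the chloride channel Cftr and restrains sodium uptake, so that fluid enters the lumen. The 9 genes described here are 5 aquaporins (Aqp1, Aqp3, Aqp4, Aqp8 and Aqp11) and the 4 genes of the guanylin pathway just named. They were chosen by gene name for these roles, with earlier results of these data known, and their probes were found by matching the accession of each array probe to rat genes. All 9 had a tested probe, among 12396 genes with one. On the array 12 probes read them, of which 11 were tested.

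Gene expression was measured in colons of 3 male S.LEW(10)x12x2x3x5 congenic rats (C1, C2 and C3) and 3 male Dahl salt-sensitive (SS/Jr, here S) rats (S1, S2 and S3), with 1 single-color array per rat, to learn how the strains differ in the colon after a carcinogen. The congenic strain carries a segment of Lewis rat chromosome 10 on the S background. All 6 rats were fed a diet with 0.3% NaCl, received 2 weekly injections of azoxymethane (AOM), a colon carcinogen, at 15 mg per kg from 6 weeks of age, shared cages as pairs of an S and a congenic rat, and were killed for the colon at 30 weeks of age. The labels name the tissue as colon with induced tumors and give neither the stretch of colon nor the share of tumor in a sample, and no rat without AOM was measured. The median intensity of an array lay between 213.8 (C2) and 594.1 (S1), and no spot was saturated.

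Among the S arrays S2 stood apart from S1 and S3, and 2 sets of markers divided the S rats in different ways. The correlation of S2 over probes was 0.967 to 0.976 with C1, C2 and C3, but 0.900 with S1 and 0.936 with S3. For the pair of S1 and S3 it was 0.98, the highest of all, and for congenic pairs 0.974 to 0.978. Lymphoid markers were high in S1 and S3. The mean of the 6 tested lymphoid markers, each centered on its mean of 6 arrays, was 3.23 in S1 and 3.00 in S3 on the log2 scale, but -1.51 in S2, which is where the congenic rats were (-1.69 to -1.46). Of these 6 genes, 5 were called lower in the congenic strain (2.63% of all genes), among them Cd3d, Cd3g, Lck and Cxcr5. With each rat left out the number was 0 to 6, and none of the 4 named was called with the methods' t-test or the slide as a block. The brightest, Cd3d, read 11.20, 9.72 and 11.25 in S1, S2 and S3 and 9.47 to 10.0 in the congenic rats. Summed over the 6 markers, the intensity came to 1854, 1405 and 1299 for C1, C2 and C3 and to 51520, 1707 and 39301 for S1, S2 and S3.

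Hoxb13, a homeobox gene of the most distal gut, made the other division. C1, C2 and C3 read 2.14, 2.16 and 2.14 for it on the log2 scale and S1, S2 and S3 read 2.19, 12.54 and 12.04, and it was well above background in S2 and S3 and in no other rat. It and Hoxd13 were singled out after their values were seen. Hoxd13, another distal gene, read 11.43 and 9.42 in the same 2 rats, 5.04 in S1 and 6.55 to 6.75 in the others. Hoxd12, the brightest of the 3 tested distal Hox genes, had this order too. It read 13.3 in S2, 12.51 in S3, 10.9 in S1 and 11.83 to 12.27 in the congenic rats. Hoxd10 did not share it, at 11.09 in S2, 10.01 in S3, 9.96 in S1 and 10.04 to 11.71 in the congenic rats. The strains overlapped for all 3. S1 therefore had lymphoid signal without Hoxb13, S2 had Hoxb13 without the lymphoid signal, and S3 had both. In RNA from whole tissue, fewer cells of a type and less RNA per cell cannot be told apart. The part of either marker set in the values below was not tested.

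**Figure D1:**
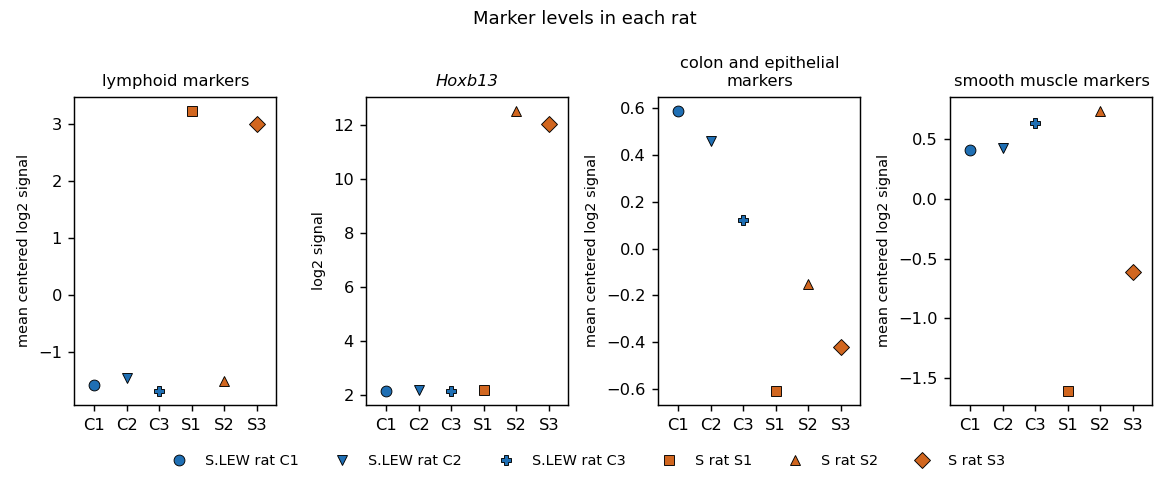
Marker levels in the 6 rats on the log2 scale, as the mean of each list after centering every gene on its mean of 6 arrays (lymphoid, colon and epithelial, and smooth muscle markers) or as the signal of Hoxb13. S1 and S3 stand at 3.23 and 3.00 for lymphoid markers, and S2 and S3 at 12.54 and 12.04 for Hoxb13.

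The labelled tissue was checked with 11 colon and epithelial markers. All 11 were well above background on every array, and their centered mean was 0.59, 0.46 and 0.12 in C1, C2 and C3 and -0.61, -0.15 and -0.42 in S1, S2 and S3. Every congenic rat thus lay above every S rat for the epithelial markers as a whole. All 11 had a log2 fold change above 0, as 53% of all genes did, with a median of 0.80 against 0.032 over all genes tested. Lgals4, the brightest, had one of 0.80. Of the 11, 1 was called higher (3.79% of all genes), Vil1 (log2 fold change 1.01). It was called in 2 of 6 fits that left out a rat and not with normexp (0.98). With each rat left out 0 to 5 of the 11 were called. The members are largely epithelial genes, so this difference in epithelial markers stands beside each of their values. Smooth muscle markers were lowest in S1 (-1.61) and S3 (-0.61) and stood at 0.74 in S2 and between 0.41 and 0.64 in the congenic rats.

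A gene was called at the study's cut-offs, an unadjusted p under 0.05 from limma with at least a 2-fold change, read at the brightest of its tested probes. In the S.LEW congenic strain 2 of the 9 members were called higher (Gucy2c and Prkg2), against 3.79% of all genes, and 1 was called lower (Guca2b), against 2.63%. No gene passed an adjusted p of 0.05 (0%) by limma with Benjamini-Hochberg adjustment, although 3108 of 23971 probes had an unadjusted p under 0.05, and the methods' t-test gave 2585 such probes and also none after adjustment. All calls below are therefore unadjusted. The congenic rats lay wholly above the S rats for 3 members (Aqp11, Gucy2c and Prkg2), as for 14.2% of all genes, and wholly below them for 2 (Aqp8 and Guca2b), as for 4.98%. With 3 rats per strain a two-sided exact permutation test cannot give a p under 0.10. Without S2 the calls were Aqp1, Gucy2c and Prkg2 higher, where 11.3% of all genes were, and Guca2b lower, where 8.26% were. Guca2b and Gucy2c were then among the 25.8% of all genes with an adjusted p under 0.05.

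**Figure D2:**
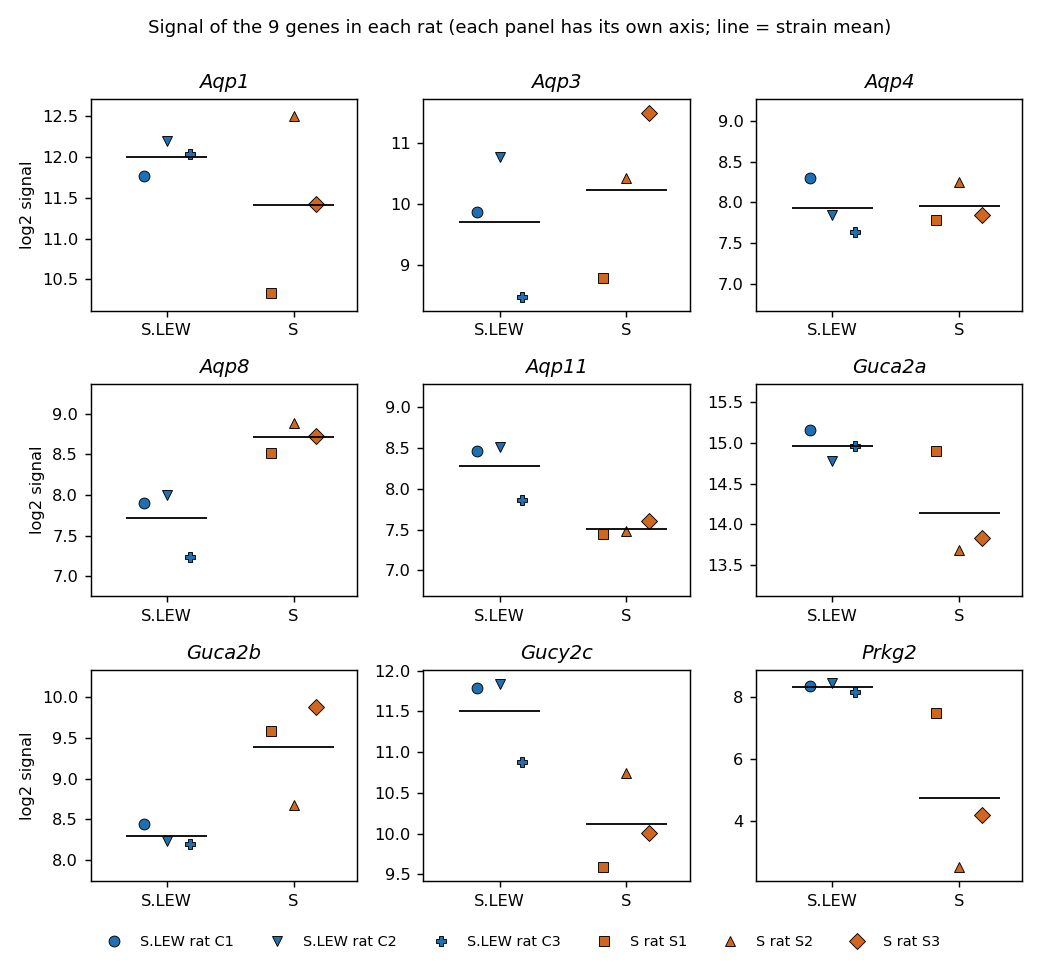
Normalized log2 signal of the 9 genes in each rat at the brightest probe of each gene, with 1 point per rat and a line at the mean of each strain. The strains do not overlap for Aqp8, Aqp11, Guca2b, Gucy2c and Prkg2, and the lowest point for Prkg2 (S2, 2.49) is not well above background.

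The fold changes of the 2 peptides had opposite signs. Guca2a, the main guanylin of the colon, read 15.16, 14.78 and 14.96 in C1, C2 and C3 on the log2 scale, and 14.90, 13.68 and 13.83 in S1, S2 and S3. S1 lay within the congenic range, and S2 and S3, the rats with Hoxb13, lay about a doubling below it. The log2 fold change was 0.83 (standard error 0.35, 95% interval -0.01 to 1.68, adjusted p = 0.387 from limma), and the gene was not called. Without S1 it was 1.21 and called, and without S2 it was 0.61.

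Guca2b, the peptide that is made mainly in the small intestine, read 8.44, 8.24 and 8.20 in the congenic rats in the same order, and 9.59, 8.68 and 9.88 in the S rats. S1 and S3, the rats with high lymphoid markers, were well above the congenic rats, and S2 stood 0.24 above the highest of them. On the log2 scale the strains differed by -1.09 (standard error 0.33, 95% interval -1.89 to -0.30, adjusted p = 0.317 from limma). It was -1.44 without S2, with an adjusted p of 0.00909 from limma. S2 was the S rat nearest to the congenic rats for Guca2b, so leaving S2 out enlarged the difference. In that fit 25.8% of all genes had an adjusted p under 0.05, against 0% with no rat left out. The small p therefore depends on leaving out S2 and does not single out Guca2b. The log2 difference was -0.84 without S3 and -0.99 without S1, where the call was lost. With the slide as a block it was -0.95 and not called.

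Guca2a and Guca2b are neighbors on rat chromosome 5, with 0 annotated genes between them in the GRCr8 assembly, and lie on opposite strands. Their promoters are shown because these adjacent genes gave fold changes of opposite sign, and that of Aqp8 because its strains did not overlap. The sequences, from RefSeq in the GRCr8 build, run from 250 bases before the start of the gene to 50 bases after it, 5′ to 3′ on the strand of the gene. Of the 9 members 7 were found in the promoter table, and Gucy2c and Prkg2 were not. Capitals mark matches on either strand to 5 motifs, which are AGATAA for GATA factors, GTTAAT as a half-site of HNF1, TTTATNG for CDX2, CAAAGNNCA for HNF4 and the TATA box TATAAA, which can overlap the CDX2 motif.

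Guca2a, chr5:138522196-138522495, plus strand: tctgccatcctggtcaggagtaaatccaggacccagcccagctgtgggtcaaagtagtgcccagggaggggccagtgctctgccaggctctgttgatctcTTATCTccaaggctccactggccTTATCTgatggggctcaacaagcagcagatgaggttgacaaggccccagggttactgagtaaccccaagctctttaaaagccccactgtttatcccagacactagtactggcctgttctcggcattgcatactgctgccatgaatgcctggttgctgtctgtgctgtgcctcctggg
Guca2b, chr5:138534161-138534460, minus strand: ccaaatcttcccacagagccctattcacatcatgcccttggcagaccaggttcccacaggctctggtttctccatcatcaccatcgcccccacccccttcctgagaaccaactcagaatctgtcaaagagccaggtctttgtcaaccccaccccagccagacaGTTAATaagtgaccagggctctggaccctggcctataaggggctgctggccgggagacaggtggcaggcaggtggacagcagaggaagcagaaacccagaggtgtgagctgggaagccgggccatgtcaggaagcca
Aqp8, chr1:187424193-187424492, plus strand: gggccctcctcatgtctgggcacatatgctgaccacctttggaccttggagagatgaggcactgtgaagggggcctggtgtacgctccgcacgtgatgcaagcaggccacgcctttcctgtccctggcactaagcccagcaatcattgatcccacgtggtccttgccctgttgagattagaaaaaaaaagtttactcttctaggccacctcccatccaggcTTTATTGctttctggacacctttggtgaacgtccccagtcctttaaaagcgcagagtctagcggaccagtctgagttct

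Guca2a holds AGATAA 2 times, both on the other strand, starting at bases -150 and -127 from the start of the gene. Among the 33469 promoters of this length, 11.6% hold that motif. Guca2b holds GTTAAT once, at -87, a motif found in 7.45% of promoters, and Aqp8 holds TTTATNG once, at -29, found in 11.3%. The HNF4 motif (in 6.08% of promoters) and the TATA box (14.2%) were in none of these 3 windows. The promoter of Aqp11, whose strains did not overlap either, is not shown and holds the HNF4 motif at -217. A match describes the letters only.

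Gucy2c, the receptor, was read by 2 probes. At the brighter one the congenic rats read 11.79, 11.84 and 10.88 (C1, C2, C3) and the S rats 9.59, 10.75 and 10.01 (S1, S2, S3). The strains did not overlap, but C3 and S2 were only a small step apart, and S1 was the lowest of all. The log2 fold change was 1.38 (standard error 0.40, 95% interval 0.43 to 2.34, adjusted p = 0.301 from limma), or 2.61-fold. The dimmer probe gave 1.6 (standard error 0.44), also called and without overlap. The brighter probe stayed called whichever rat was left out, between 1.12 (without S1) and 1.70 (without C3 or S2), and with the slide as a block it gave 1.67.

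Prkg2, the kinase activated by the cyclic GMP of this receptor, read 8.35, 8.44 and 8.15 in C1, C2 and C3 but 7.47, 2.49 and 4.20 in S1, S2 and S3. The congenic rats lay close together. S1 was less than a doubling below them, and S2 and S3, which carried the Hoxb13 signal, were far lower, S2 being not well above background. The log2 fold change was 3.59 (standard error 1.17, 95% interval 0.77 to 6.41, adjusted p = 0.334 from limma). Its size depended on single S rats and on the background: it was 4.97 without S1 and 2.48 without S2, 1.65 with normexp background correction, and not called without S3 (3.33), without C1 (3.57), with the methods' t-test or with the slide as a block (3.63).

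**Figure D3:**
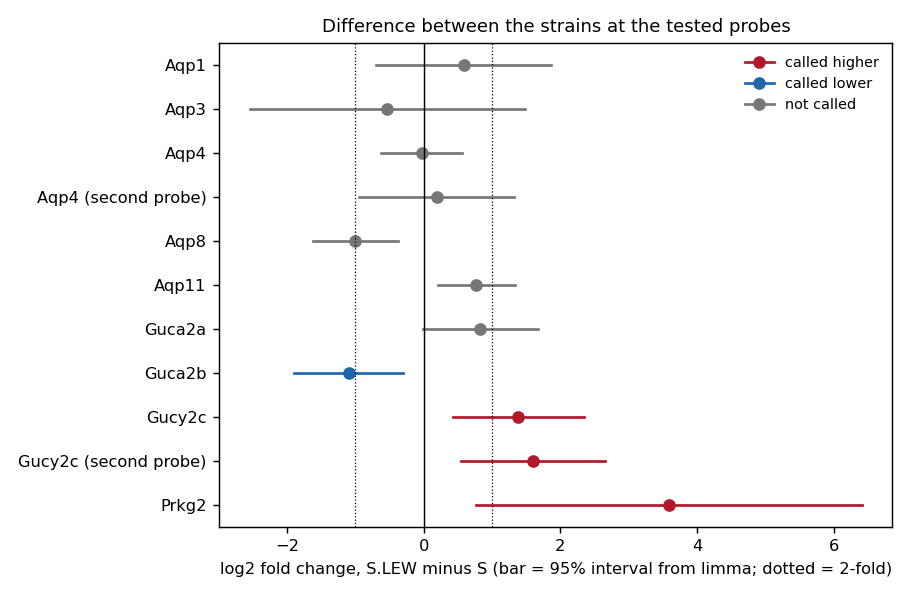
Log2 fold change between the strains (S.LEW minus S) at the 11 tested probes of the 9 genes, with 95% intervals from limma, dotted lines at a 2-fold change and colors for the calls. Both Gucy2c probes and Prkg2 lie to the right, Guca2b and Aqp8 to the left, and the interval of Prkg2 runs from 0.77 to 6.41.

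Among the aquaporins, Aqp8 and Aqp11 separated the strains in opposite directions. Aqp8, a water channel of the surface epithelium of the colon, read 7.90, 8.00 and 7.24 on C1, C2 and C3 and 8.52, 8.88 and 8.73 on S1, S2 and S3. Every S rat was higher than every congenic rat, and the 3 S rats lay within 0.36 of each other. The difference in log2 signal was -1.0 (standard error 0.26, 95% interval -1.62 to -0.38, adjusted p = 0.277 from limma). It fell just short of a 2-fold change and was therefore not called, while without C1, C2 or S1 it was called, at -1.09, -1.14 and -1.09. With the slide as a block it was -0.81.

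Aqp11, an aquaporin of intracellular membranes, read 8.47, 8.52 and 7.86 among the congenic rats, C1 to C3, and 7.45, 7.48 and 7.61 among the S rats, S1 to S3. The S rats were alike and all lay below the lowest congenic rat, C3. The log2 fold change was 0.77 (standard error 0.23, 95% interval 0.21 to 1.33, adjusted p = 0.317 from limma), under 2-fold. It lay between 0.65 and 0.98 with each rat left out and was 0.96 with the slide as a block.

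Aqp1, the water channel of blood vessel endothelium, was even in the congenic rats, at 11.77, 12.20 and 12.04 for C1, C2 and C3, and uneven in the S rats, at 10.33, 12.50 and 11.42 for S1, S2 and S3. S2 was above and S1 and S3 below all congenic rats. The strains differed by 0.59 (standard error 0.53, 95% interval -0.69 to 1.86). The value was 1.13 and called without S2 but 0.04 without S1, and it was 0.35 with the slide as a block. Of 7 endothelial markers none was called with all 6 rats and 1 was called lower without S2, where 8.26% of all genes were. Their log2 fold changes ran from -1.14 to 0.39 (-0.27 for Kdr, the brightest), and their centered mean was -0.37 to -0.01 in the congenic rats and 0.09 to 0.17 in the S rats. Smooth muscle markers had the same order among the S rats as Aqp1 (S1 -1.61, S3 -0.61, S2 0.74), and so did glial and neuronal markers (S1 -1.05, S3 -0.48, S2 0.73). The single endothelial markers went different ways, some with the order of Aqp1, others highest in S1, and Kdr highest in S3 (10.83) and lowest in S2 (10.45).

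Aqp3, a channel for water and glycerol in the lateral membranes of the epithelium, varied most among the congenic rats. C1, C2 and C3 read 9.86, 10.78 and 8.47, and S1, S2 and S3 read 8.78, 10.42 and 11.50. The strains overlapped, C3 being the lowest and S3 the highest of all 6 rats, with a log2 fold change of -0.53 (standard error 0.83, 95% interval -2.54 to 1.48) that was above 0 without C3 or S3. For Aqp4, known best from glial cells, the brighter probe ran from 7.64 to 8.30 in the congenic rats and from 7.78 to 8.25 in the S rats. Its log2 fold change was -0.03 (95% interval -0.62 to 0.56), and that of the second probe was 0.19 (95% interval -0.94 to 1.32). The remaining Aqp4 probe was well above background in 2 S rats and in no congenic rat and was not tested.

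**Figure D4:**
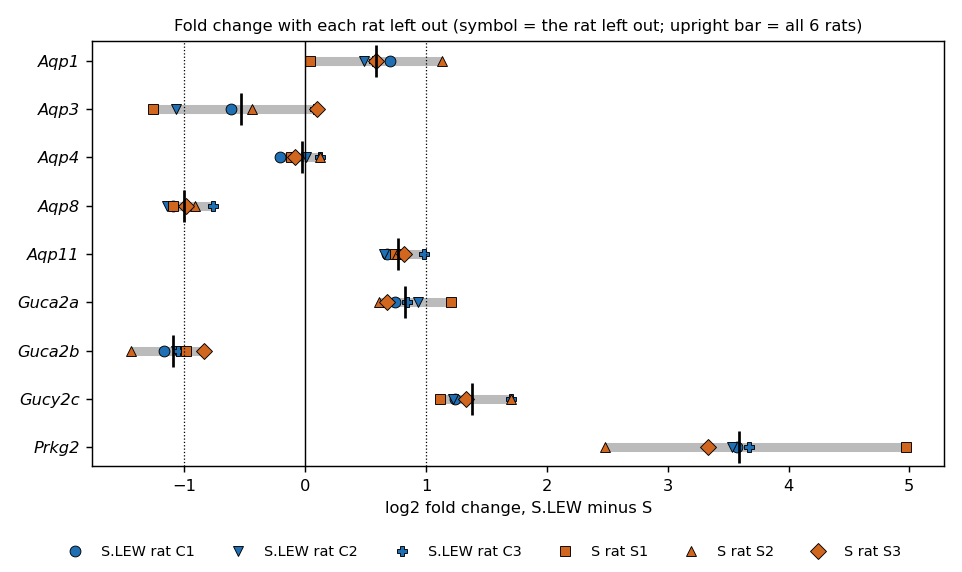
Log2 fold change of each of the 9 genes with each rat left out, where the symbol names the rat left out, the upright bar marks the value with all 6 rats and dotted lines mark a 2-fold change. Prkg2 runs from 2.48 to 4.97, while Aqp8, Aqp11 and Gucy2c keep to a range of under 0.6.

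Of 7 further aquaporins on the array, 5 were tested and none was called. Their log2 fold changes were 0.45 for Mip, 0.11 for Aqp2, -0.28 for Aqp5, 0.06 for Aqp6 and 0.67 for Aqp12a, with a median of 0.11. Aqp7 and Aqp9 were each well above background in 1 S rat and in no congenic rat. With each rat left out Mip ranged from 0.29 to 0.76, Aqp2 from -0.19 to 0.30, Aqp5 from -0.62 to -0.01, Aqp6 from -0.42 to 0.33 and Aqp12a from 0.35 to 0.84. With the slide as a block the values were 0.63 for Mip, 0.72 for Aqp2, -0.83 for Aqp5, 0.53 for Aqp6 and 0.78 for Aqp12a. Aqp12a was the only one of the 5 for which the strains did not overlap. The congenic rats lay wholly above the S rats for it, as for 14.2% of all genes. With normexp its log2 fold change was 0.24.

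Of 22 other genes that make, break down or respond to cyclic GMP, 19 were tested. In the congenic strain 3 of the 19 were called higher (3.79% of all genes) and 0 lower. Values above 0 were found for 15 (53% of all genes), with a median log2 fold change of 0.73. Among 8 smooth muscle markers, 8 had a value above 0, with a median of 0.95. Without S1 the medians were 0.36 for the cyclic GMP genes, 0.36 for smooth muscle and 0.32 for glial and neuronal markers. Without C1 they were 0.73, 1.02 and 0.56 in the same order. The part of any cell type in the values of the cyclic GMP genes was not tested. Npr1, the receptor cyclase for atrial natriuretic peptide, read 11.63, 11.84 and 11.21 in C1, C2 and C3 and 9.75, 9.13 and 9.40 in S1, S2 and S3, and limma gave it a log2 fold change of 2.13 with a standard error of 0.26 (adjusted p = 0.193). All 3 S rats were more than a doubling lower, and the value lay between 1.99 and 2.31 with each rat left out and was 2.20 with the slide as a block. Pde11a, a phosphodiesterase that degrades cyclic GMP and cyclic AMP, differed by 2.94 on the log2 scale (standard error 0.72), with 2 of 3 S arrays well above background, and it ranged from 2.37 without C3 to 3.60 without S1, was 1.41 with normexp and was not called with the slide as a block (2.67). Gucy1b1, a subunit of the soluble cyclase, differed by 1.03 (standard error 0.37), was called in 2 of 6 fits that left out a rat and was not called with normexp (0.99), the methods' t-test or the slide as a block (0.70). The 2 largest changes that were not called were those of Pde3a (1.40, standard error 0.63) and the peptide gene Nppc (1.33, standard error 0.58). With normexp they were 0.47 and 0.44, and with each rat left out Pde3a ranged from 0.85 to 2.11 (called without S2) and Nppc from 0.85 to 1.88 (called without S2). Without S2, 10 of the 19 were called higher, where 11.3% of all genes were, and so were 6 of 8 smooth muscle markers (median 1.58) and 2 of 7 glial and neuronal markers.

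Of 23 genes for fluid secretion and absorption, all tested, 8 were called higher (3.79% of all genes) and 0 lower (2.63%). Values above 0 were found for 18 (53% of all genes), with a median log2 fold change of 0.71. Among the 11 colon and epithelial markers, 11 had a value above 0, with a median of 0.80. Without S1 the medians were 0.46 for the transport genes and 0.68 for the epithelial markers. The part of epithelial content in the transport values was not tested. The number called higher was 4 to 10 with each rat left out. The basolateral bicarbonate cotransporter Slc4a4 read 11.07, 10.62 and 10.28 in C1, C2 and C3 and 8.93, 9.0 and 8.70 in S1, S2 and S3, and limma gave it a log2 fold change of 1.78 with a standard error of 0.25 (adjusted p = 0.193). The strains stood apart by more than a doubling. Also called were genes with log2 fold changes of 1.24 for the chloride channel Clcn2, 1.01 for Atp1b1, 1.2 for the potassium channel subunit Kcne3, 1.05 for the cotransporter Slc12a2, 1.07 for the chloride and bicarbonate exchanger Slc26a3 and 1.01 for the scaffold protein Nherf2. In fits that left out a rat, Slc4a4, Clcn2 and Kcne3 were called in 6 of 6, and Slc12a2, Slc26a3, Atp1b1 and Nherf2 in 3 of 6. With the slide as a block Slc12a2 (1.07) and Nherf2 (0.86) were not called, and neither was Nherf2 with normexp (0.80) or Atp1b1 with the methods' t-test. Cftr, the channel that Prkg2 opens, was 12.52, 12.84 and 12.17 in C1, C2 and C3 and 11.52, 11.87 and 11.20 in S1, S2 and S3, without overlap. Its log2 fold change was 0.98 (standard error 0.27), just under 2-fold, while a dimmer Cftr probe gave 1.67 (standard error 0.39) and passed the cut-offs. The receptor gene Vipr1 was the other largest change not called, at 0.81 (standard error 0.47), with 0.34 without S1 and 1.27, called, without S2.

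**Figure D5:**
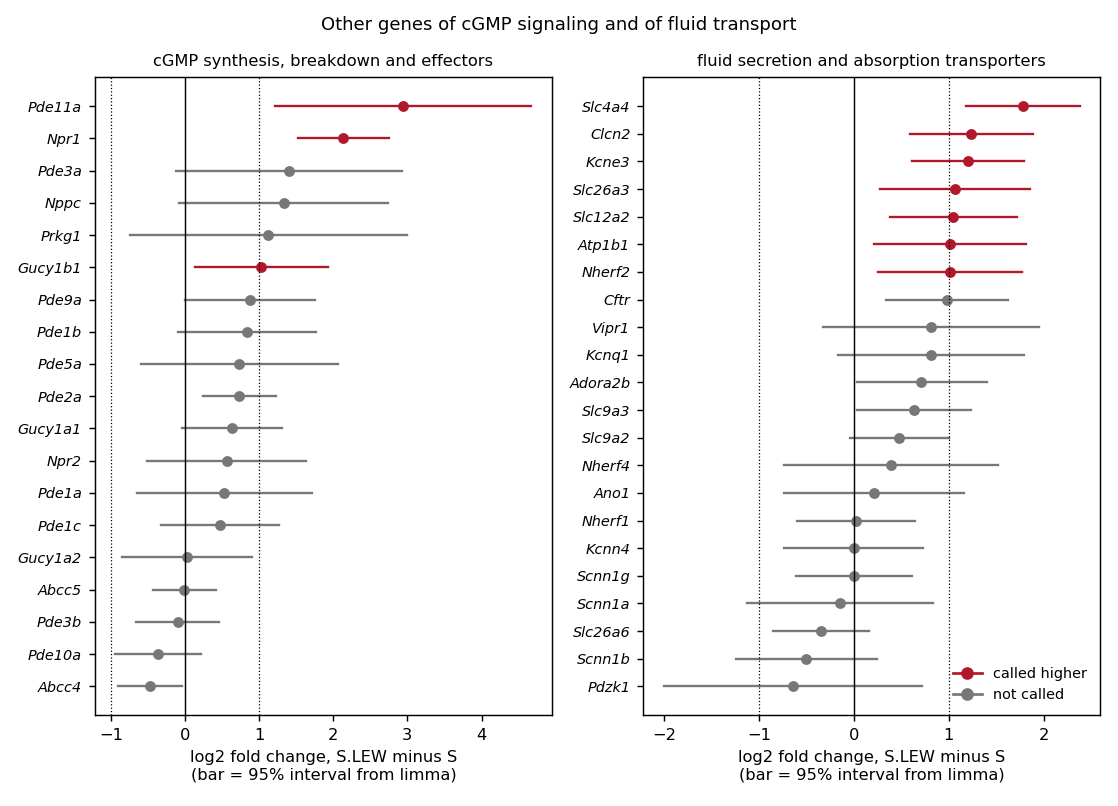
Log2 fold change between the strains with 95% intervals from limma for the tested genes of cyclic GMP signaling (left) and of fluid transport (right, without 1 gene not reported here), with dotted lines at a 2-fold change and red for genes called higher. The intervals of Npr1, Pde11a and Slc4a4 lie wholly above a 2-fold change, and 15 of 19 genes on the left lie above 0. For Pde11a only 2 of 3 S arrays were well above background.

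For 4 members the genes with the most similar values were sought among 10764 others that were well above background on all 6 arrays, by the root mean square distance between centered log2 values over 6 rats. Those nearest to Gucy2c were Slc44a3 (0.11), Agr3 (0.15) and Capsl (0.16), and those nearest to Guca2a were Slc39a8 (0.17), Cidec (0.17) and Sec16b (0.19). Guca2b was nearest to Asap1 (0.12), Dram1 (0.13) and Sp100 (0.14), all of which were higher in S1 and S3 than in S2. Aqp8 was nearest to Stap1 (0.12), Tmem268 (0.17) and Timd2 (0.20). The own spread of the members on the same measure was 0.83 for Gucy2c, 0.58 for Guca2a, 0.66 for Guca2b and 0.56 for Aqp8, and the nearest other member stood at rank 449 for Gucy2c (Aqp11, 0.47), 906 for Guca2a (Aqp11, 0.48), 1545 for Guca2b (Aqp8, 0.49) and 670 for Aqp8 (Guca2b, 0.49).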

How the data were processed

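Per the labels, RNA of each colon was labelled with a single dye. The authors read the array images with Agilent Feature Extraction 11.0.1.1, and in the deposited scanner files the unit is a background-corrected intensity per spot, not normalized between arrays. The authors also deposited quantile-normalized log2 values, which served as an alternative and differed from the values used here by at most 0.018 at the 11 tested member probes. Here control spots and outlier spots were dropped, a probe's spots were averaged as log2 intensities, and quantile normalization was applied over the 6 arrays. A probe was tested if it stood well above background on 3 or more of them.

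A probe counted as well above background on an array when more than 50% of its spots were. This rule was set after the data were seen. A looser form that counts ties was coded first and gave 23974 tested probes, and it was replaced because the stricter form gives 23971, the number from an earlier processing of these files. The looser form was added back as an alternative.

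The comparison of strains used lmFit and eBayes of limma 3.58.1 under R 4.3.3, without covariates. P values were adjusted by Benjamini and Hochberg's method over every tested probe. Exact permutation tests are two-sided. Probes were named through RefSeq accessions of GRCr8 (18005 of 30367). Where a gene had several tested probes the brightest was used. Plots were drawn with matplotlib 3.10.9. By the scan start recorded in the scanner files the arrays fell into 2 groups, taken to be slides. Slide 1 stands for C1 and all S rats, and slide 2 for C2 and C3. The slide itself was not read from the files, so a slide here means arrays with the same scan start. Within slide 1 the congenic strain is therefore C1 only, and its spread is assumed to equal that of the S rats. With the slide as a block the difference between the strains also rests on C1, because slide 2 holds no S rat. Alternatives were the deposited values, 75th percentile scaling, normexp (offset 50) on the median signals, other filters, array weights, the methods' t-test, a block by slide or by replicate number, slide 1 alone, keeping outlier spots, the mean of a gene's probes, and leaving out each rat.

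The members and the gene lists (other aquaporins, cyclic GMP genes, fluid transporters and 11 marker lists) were chosen with earlier results of these data known. Named were all members and other aquaporins, every called gene of the cyclic GMP and transport lists with the 2 largest changes not called, the brightest and every called gene of each marker list, and the 3 genes nearest to 4 members. Hoxb13, Hoxd10, Hoxd13 and Myh2 were added after the data were seen. The results of 3 called genes are not reported here.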

Additional observations from a re-analysis of the deposited data

How the results depend on the processing

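With all 6 rats 775 probes were called higher and 563 lower. The counts higher and lower were 514 and 172 with the methods' t-test, 2001 and 1643 with array weights and 443 and 188 within slide 1. Only 359 were higher with normexp, and only 342 lower with the filter on all 6 arrays and 225 with the slide as a block. Leaving out each rat gave 476 to 2399 higher and 186 to 1725 lower, the highest without S2, which array weights also gave the lowest weight (0.159). The replicate block gave 791 and 743 and called the same 2 members higher and 1 lower. The labels do not say which rats shared a cage, and the main fit used no pairing. Deviations from the strain means had r of -0.02, -0.13 and -0.06 for same-numbered rats and -0.22 to 0.26 for the other pairs. With 3 rats per strain these values cannot decide whether the numbers pair the rats.

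Of the members, 2 were called higher and 1 lower. With the filter on all 6 arrays (which drops Prkg2), the methods' t-test, the slide as a block and within slide 1 it was 1 higher, and 0 were lower with normexp, the slide as a block and within slide 1. Leaving out each rat gave 1 to 3 higher and 0 to 2 lower. Guca2b was -0.93 with normexp and -0.95 with the slide as a block and within slide 1, and -1.44 to -0.84 with each rat left out. Prkg2 was not called with the methods' t-test (3.59), the slide as a block or within slide 1 (3.63) and ranged from 2.48 to 4.97 with each rat left out. With each rat left out Aqp1 ranged from 0.04 to 1.13, Aqp3 from -1.26 to 0.10, Aqp4 from -0.21 to 0.12, Aqp8 from -1.14 to -0.76 and Guca2a from 0.61 to 1.21. Aqp3 was 0.08 without C3. Aqp4 turned to 0.09 with array weights, 0.34 with the slide as a block and within slide 1 and 0.08 with the mean of its probes, and to 0.01, 0.12 and 0.12 without C2, C3 and S2. Gucy2c (1.12 to 1.70) kept its direction in all 19 alternatives. It also kept its call, leaving aside the slide as a block and slide 1 alone (1.67), where the difference rests on C1 as the only congenic rat. Aqp11 (0.62 to 0.98) kept its direction and was called in none. Counting ties between spots, an alternative added after the data were seen, tested 23974 probes and changed no member call. The causes were not tested. For Prkg2, S2 was not well above background.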

Other observations

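Other marker lists also differed between rats. Among surface colonocyte markers 3 of 7 were called higher in the congenic strain (3.79% of all genes) and 5 had a log2 fold change above 0 (53% of all genes), with a median of 0.99. Without S2, 2 were called higher, where 11.3% of all genes were, and 1 lower, where 8.26% were. Car1, the brightest of them, had a log2 signal of 15.81, 14.98 and 15.55 in C1, C2 and C3 and of 13.73, 11.49 and 10.89 in S1, S2 and S3, with S1 again the S rat nearest to the congenic rats, as for Guca2a and Prkg2. Slc26a3 was also called. Of 6 goblet cell markers 1 was called higher, Spdef, which was also the brightest (log2 fold change 1.25), 4 had a value above 0, and the list mean overlapped between the strains. Spdef was not called with the slide as a block (1.03), without C3 or without S3. Of 5 fat cell markers 2 were called higher, Adipoq (1.91) and the brightest, Cfd (1.57), both highest in C3, which lies on slide 2. With the slide as a block they were 0.98 and 0.81 and not called, and neither was Adipoq with the methods' t-test.

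Of 6 striated muscle markers 2 were called lower in the congenic strain (2.63% of all genes), Tnnt3 (-1.39) and Myh1. Of the 6, 2 had a value above 0 (53% of all genes), and Ckm, the brightest, overlapped. The centered mean of the 6 was 1.34 in S2, 0.85 in S3, -0.39 in S1 and -0.94 to -0.30 in the congenic rats. The single genes had different orders among the S rats. Myh2 read 2.67, 10.94 and 8.36 in S1, S2 and S3, while Tnnt3 (8.98) and Myh1 (6.46) were highest in S1. Myh1 was well above background in every S rat but in none of the congenic rats, so only a bound, at least 2.08-fold, is given, and with normexp it was not called. Of 8 smooth muscle markers 1 was called higher (3.79% of all genes), Smtn (1.12). It was called in 1 of 6 fits that left out a rat and not with 75th percentile scaling, the slide as a block or the methods' t-test. Actg2, the brightest, was 16.19 in S1 against 17.17 to 17.62 in the other rats. None of the tested glial and neuronal markers (7 genes, Uchl1 the brightest) or red blood cell markers (4 genes, Hba-a1 the brightest) was called. The part of these cell types in the values of the members was not tested.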
